A study of Mus musculus with 12 samples.

Results

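MeVa2.1.dOVA and its parent MeVa2.1 are mouse melanoma cell lines, compared here across 13985 expressed genes in 3 RNA-seq libraries of each line, 6 of the 12 libraries of the series. The members are the libraries whose titles name these lines, and the other 6 libraries, of MeVa2.2 and MeVa2.2.dOVA, serve the estimate of the spread and one comparison at the end. Per the labels, both lines have the WT genotype, were left untreated, and carry skin and a subcutaneous tumour as their source, and no age is given. What dOVA stands for is nowhere explained. MeVa2.1.dOVA is taken as a derivative of MeVa2.1 from its name, and what was introduced, or whether the derivative is a single clone, is not given in the sources used here. The title of the series describes the derivative as immune-refractory. No label says that replicates were grown separately, so the p-values cover the spread among these libraries alone, and that spread may be technical.

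Melanoma arises from melanocytes, pigment cells of the neural crest, and melanoma cells can lose the pigment program and take on traits of mesenchymal cells. Such cells build and cut their own surroundings: they secrete basement membrane proteins, proteases and protease inhibitors, hold neighbours and matrix through cadherins, immunoglobulin-type receptors and integrins, and receive cytokines and prostaglandins that immune and stromal cells also use. The genes below are ordered by these roles.

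Levels are given as CPM, which is a gene's count relative to all gene counts of its library, after scaling between libraries. Total gene counts per library ran from 16181816 to 35627069 in these 6 libraries, and replicate 3 was the deepest library of both lines. The lines were poor in pigment cell transcripts. Mitf, the master factor of melanocytes, was at 24.4, 20.4 and 12.9 CPM in MeVa2.1 and 14.01, 9.12 and 12.3 CPM in MeVa2.1.dOVA, and the pigment enzyme gene Tyr was at 0.437, 0.273 and 1.18 CPM and 0.428, 0.651 and 0.659 CPM. Sox10 and Mlana were too low to be tested, and 0 of the 11 tested pigmentation genes passed edgeR's test, where 0 were higher and 4 lower at an unadjusted p under 0.05 and DESeq2 called 0. Axl, a receptor tyrosine kinase found on dedifferentiated melanoma cells, was at 1511, 1376 and 1708 CPM in MeVa2.1 and 1792, 1581 and 1836 CPM in MeVa2.1.dOVA.

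Most of the genes that differed were lower in MeVa2.1.dOVA, among them genes of a basement membrane protein (Nid1), heparanase (Hpse), cathepsin K (Ctsk) and the oncostatin M receptor (Osmr), while the interleukin-33 receptor gene Il1rl1 was among those that were higher. Of the 13985 genes, 68 passed edgeR's quasi-likelihood test at an adjusted p of 0.05, or 0.486% of those tested: 54 were lower in MeVa2.1.dOVA (0.386%) and 14 were higher (0.1%). Of these 54, 11 belonged to one or more of 11 lists of matrix, protease and adhesion genes with 228 tested members, none of which was called higher. For all 68 the libraries of the lines did not overlap, as for 21.1% of all tested genes, and the sign was the same in 3 of 3 same-numbered pairs of libraries, as for 49.8% of all. Since the test selects such genes, this only describes them. The fitted difference was at least 2-fold for each. The median log2 fold change was -3.16 over the genes called lower and 3.07 over those called higher, against 0.002 over all tested genes. Values after ± are standard errors of the fit, n = 3 libraries per line, unless they are named otherwise. For the counts of list members given below, 4.31% of all tested genes were higher and 6.89% lower at an unadjusted p under 0.05 (11.2% in either direction), and DESeq2 called 0.601% higher and 2.22% lower. In bulk RNA, fewer cells that express a gene and less RNA per cell cannot be told apart.

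Same-numbered libraries of the lines varied together, and when that number entered the fit as a block 450 genes were called, or 3.22%: 352 lower (2.52%) and 98 higher (0.701%), with all 68 among them. Of these 450, the lines' libraries did not overlap for 384. The spread had a shape of its own: among the 54 genes called lower, the highest MeVa2.1 library was replicate 1 for 37, and the lowest MeVa2.1.dOVA library was replicate 2 for 34. Replicate 2 of MeVa2.1.dOVA stood apart from its line, with correlations of log2 CPM of 0.965 with both other replicates, which correlated at 0.987 with each other. Without it 1 gene was called, as was the case without replicate 1 or 2 of MeVa2.1 or replicate 3 of MeVa2.1.dOVA, and 9 were called without replicate 1 of MeVa2.1.dOVA. The gene called in each of these fits was Pcdhgb2, and no called gene changed sign in any of them. The plot of level and difference shows how the calls fell over the range of expression, and the plot of all called genes shows their 6 values.

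**Figure D1:**
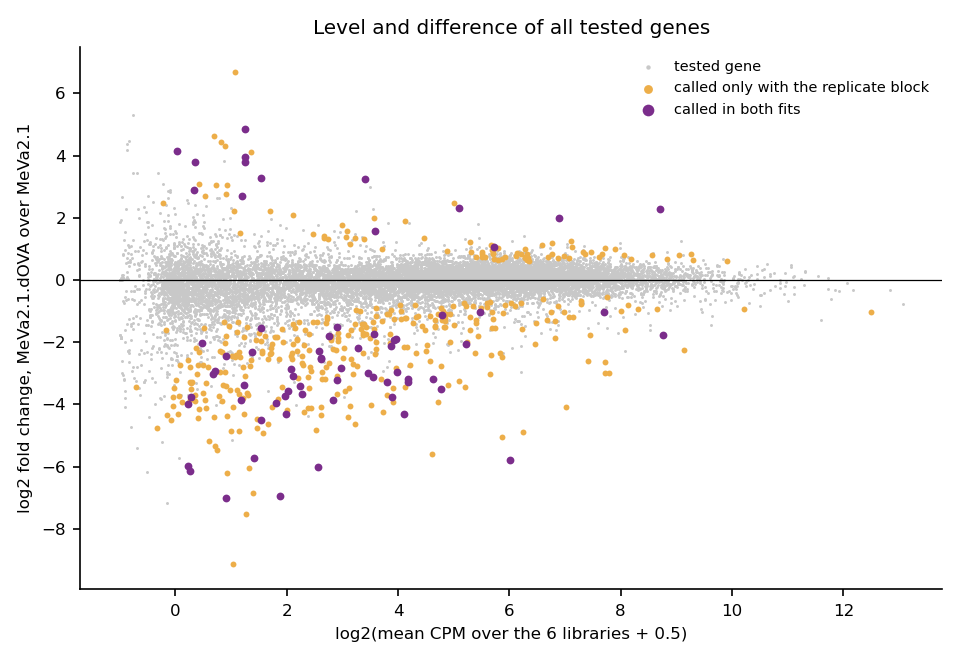
Each point is 1 of 13985 tested genes, placed by the log2 of its mean CPM over the 6 libraries plus 0.5 (x axis) and its log2 fold change of MeVa2.1.dOVA over MeVa2.1 (y axis). The 68 genes called in both fits and the genes called only with the replicate block lie mostly below 0, and many called higher with the block sit at a small positive fold change and a high level.

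**Figure D2:**
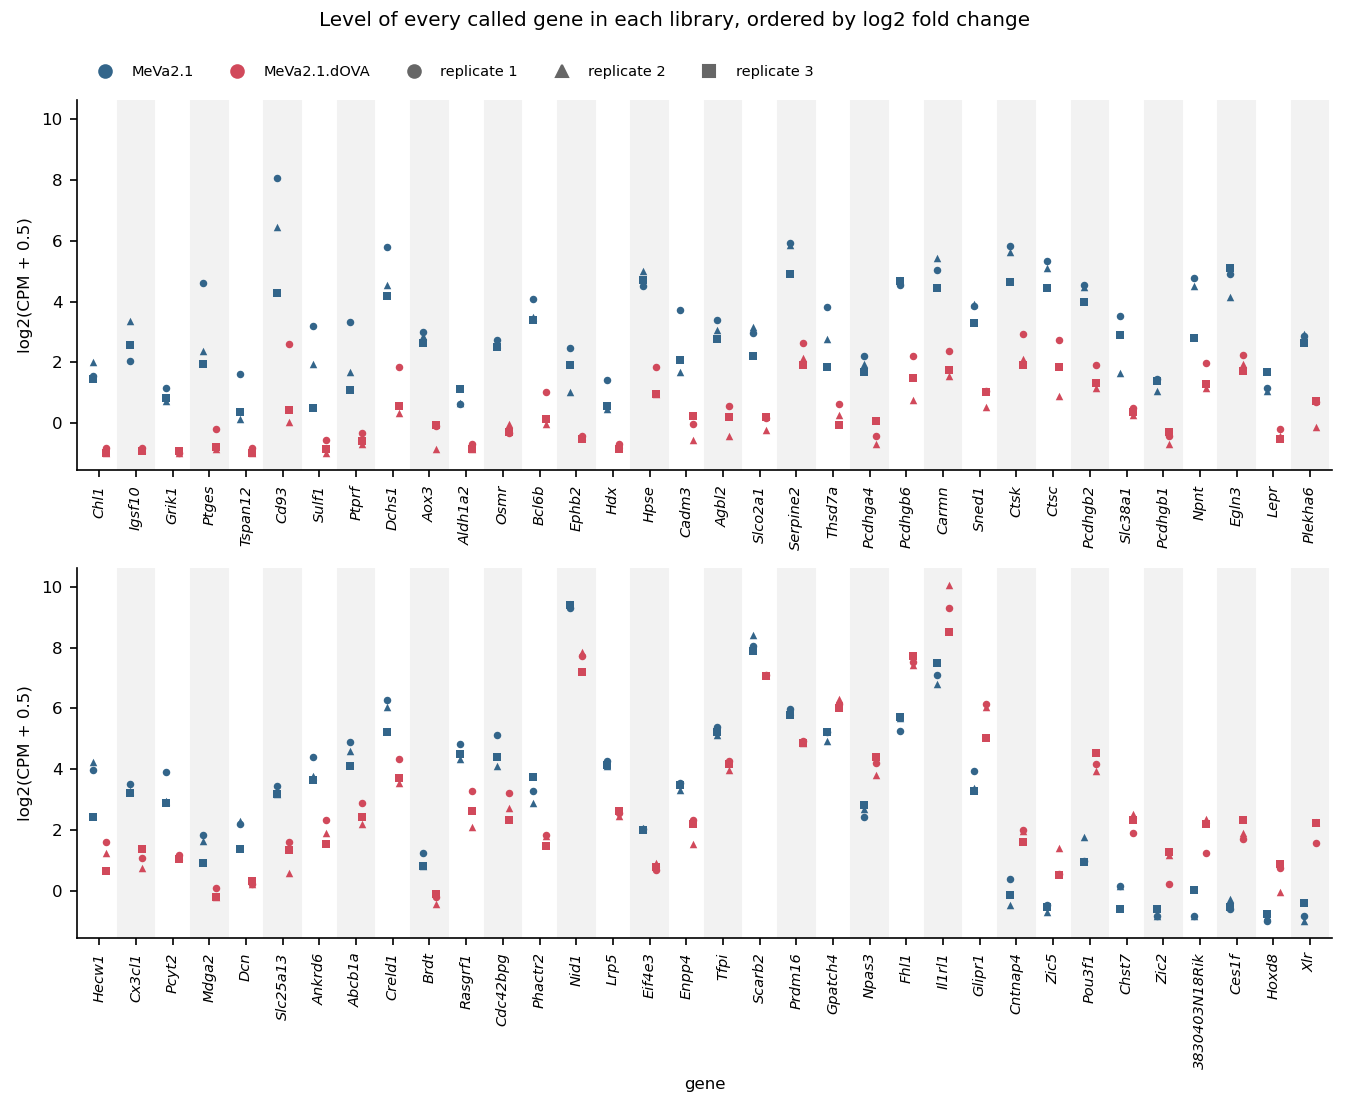
The log2 of CPM plus 0.5 (y axis) is plotted for each of the 68 called genes (x axis, ordered by fold change), with MeVa2.1 in blue, MeVa2.1.dOVA in red and the replicate number given by the symbol's shape. The blue and red symbols of a gene do not overlap, and replicate 1 of MeVa2.1 is the top blue symbol for 37 of the 54 genes called lower.

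Several of the genes that fell encode matrix proteins. Nid1, at chr13:13437551-13512269, encodes nidogen-1, which links laminin to collagen IV in basement membranes. It was at 630.2, 693 and 682 CPM in MeVa2.1 and 212, 229 and 147 CPM in MeVa2.1.dOVA, a 3.41-fold lower level (log2 fold change -1.77 ± 0.25, adjusted p = 0.0193). The libraries of each line lay close together, and the lowest parent library was far above the highest library of the derivative. Npnt, the gene of the basement membrane protein nephronectin, an integrin ligand, was at 27.2, 22.3 and 6.45 CPM in MeVa2.1 and 3.49, 1.72 and 1.92 CPM in MeVa2.1.dOVA (log2 fold change -2.98 ± 0.51, adjusted p = 0.0328). Its replicate 3 of MeVa2.1 lay well below the other parent libraries, yet above all 3 of MeVa2.1.dOVA. Sned1, which encodes a secreted matrix glycoprotein, was 9.29-fold lower, at 14.1, 14.5 and 9.33 CPM in MeVa2.1 and 1.59, 0.947 and 1.52 CPM in MeVa2.1.dOVA (log2 fold change -3.22 ± 0.41, adjusted p = 0.0193). Part of its exons overlaps Mterf4 on the other strand, so its level is less certain. Dcn, the gene of decorin, a small proteoglycan that binds collagen fibres, fell from 4.04, 4.37 and 2.06 to 0.673, 0.651 and 0.745 CPM in replicates 1 to 3 (log2 fold change -2.32 ± 0.40, adjusted p = 0.0328). The 3 libraries of the derivative were nearly level. Thsd7a, which encodes a membrane protein with thrombospondin repeats, fell 10.7-fold (log2 fold change -3.42 ± 0.58, adjusted p = 0.0328).

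Collagen and other matrix genes not in this group of 68 mostly had negative fold changes, with a few calls when the replicate block was used. Of 21 tested collagen genes, 0 passed the test without the block (8 were lower at an unadjusted p under 0.05, and DESeq2 called 3 lower), 4 were called lower with it, and 18 had negative values, with a median log2 fold change of -1.15. The median was -0.75 without replicate 2 of MeVa2.1.dOVA and -0.76 without replicate 2 of MeVa2.1. Col6a3 was at 487, 499.8 and 129.9 CPM in MeVa2.1 and 88.5, 16.4 and 34.6 CPM in MeVa2.1.dOVA (log2 fold change -3.03 ± 0.54, adjusted p = 0.0236 with the replicate block and 0.137 without). Not all collagens followed: Col1a1 was at 609, 757 and 1142 CPM in MeVa2.1 and 957, 712 and 1358 CPM in MeVa2.1.dOVA and Col1a2 at 806, 1509 and 1724 CPM in MeVa2.1 and 1419, 1302 and 2403 CPM in MeVa2.1.dOVA, with adjusted p of 0.912 and 0.829. Among 25 matricellular and small proteoglycan genes, 1 was called without the block (Dcn) and 5 with it, all lower, and the median was -0.87, or -0.40 without replicate 2 of MeVa2.1.dOVA. Postn, the gene of periostin, was at 22.1, 109 and 135 CPM in MeVa2.1 and 6.91, 5.39 and 20.2 CPM in MeVa2.1.dOVA (log2 fold change -2.90 ± 0.61, adjusted p = 0.0439 with the replicate block and 0.302 without). Of the elastic fibre and lysyl oxidase genes, Efemp1 was at 252, 119 and 361 CPM in MeVa2.1 and 27.9, 2.901 and 12.9 CPM in MeVa2.1.dOVA (log2 fold change -4.40 ± 0.54, adjusted p = 0.00624 with the replicate block and 0.062 without). Loxl2, whose product crosslinks collagen, went from 249 counts summed over the 3 MeVa2.1 libraries to 1 count in MeVa2.1.dOVA, a ratio of 232 with a 95% counting interval of 41.3 to 9210 (adjusted p = 0.00137 with the block and 0.0693 without). Loxl4 had the opposite sign, at 7.91, 3.88 and 3.21 CPM in MeVa2.1 and 13.5, 11.5 and 13.5 CPM in MeVa2.1.dOVA (log2 fold change 1.47 ± 0.30, adjusted p = 0.042 with the replicate block and 0.341 without). Counting intervals given here are exact and cover counting error only. Fn1, the fibronectin gene and the one with the highest mean CPM in these lines, was at 7311, 17070 and 8051 CPM in MeVa2.1 and 5781, 7896 and 5484 CPM in MeVa2.1.dOVA and did not pass either fit (adjusted p = 0.111 with the block and 0.509 without).

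Genes of proteases and their inhibitors were also among those that fell. Ctsk, at chr3:95499256-95509362, encodes cathepsin K, a lysosomal and secreted protease that degrades collagen. Its level was 56.7, 49.2 and 24.5 CPM in MeVa2.1 and 7.22, 3.85 and 3.24 CPM in MeVa2.1.dOVA, 9.16-fold lower in the derivative (log2 fold change -3.20 ± 0.46, adjusted p = 0.0193). Ctsc, the gene of cathepsin C, which activates serine proteases of granules, was at 40.3, 34.2 and 21.2 CPM in MeVa2.1 and 6.12, 1.36 and 3.07 CPM in MeVa2.1.dOVA (log2 fold change -3.18 ± 0.49, adjusted p = 0.0235). The lowest parent library lay above the highest library of the derivative for both genes. Serpine2, at chr1:79794197-79861180, encodes protease nexin-1, an inhibitor of thrombin and urokinase, and was at 60.8, 57.2 and 29.7 CPM in MeVa2.1 and 5.75, 3.91 and 3.27 CPM in MeVa2.1.dOVA (log2 fold change -3.52 ± 0.62, adjusted p = 0.0388). Tfpi, the inhibitor of the tissue factor pathway of coagulation, fell 2.2-fold, from 41.4, 34.1 and 37.2 to 18.7, 15.04 and 17.4 CPM (log2 fold change -1.14 ± 0.19, adjusted p = 0.0313). With the block, Plau, the gene of urokinase itself, was lower too, at 137, 18.8 and 28.1 CPM in MeVa2.1 and 12.4, 1.95 and 5.22 CPM in MeVa2.1.dOVA (log2 fold change -3.04 ± 0.44, adjusted p = 0.0121 with the replicate block and 0.243 without). Thbd, the thrombin receptor thrombomodulin, was at 80.8, 50.03 and 14.5 CPM in MeVa2.1 and 6.18, 2.901 and 0.802 CPM in MeVa2.1.dOVA (log2 fold change -3.97 ± 0.19, adjusted p = 0.000274 with the replicate block and 0.0607 without). Within the list of 31 metalloproteinase, ADAM and TIMP genes, 0 passed without the block (12 were lower at an unadjusted p under 0.05, against 6.89% of all genes, and DESeq2 called 4 lower, against 2.22%) and 5 were lower with it, among them Mmp10 at 167, 25.4 and 6.92 CPM in MeVa2.1 and 17.4, 0.118 and 0.831 CPM in MeVa2.1.dOVA. The abundant Mmp14, a membrane-bound collagenase, was at 375, 518 and 351 CPM in MeVa2.1 and 289, 186 and 274 CPM in MeVa2.1.dOVA (adjusted p = 0.412).

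Heparan sulfate is a sugar chain of surface and matrix proteoglycans that holds growth factors, and Hpse and Sulf1, which edit it, fell. Hpse, at chr5:100679484-100719716, encodes heparanase, the enzyme that cuts these chains. It was at 22.6, 31.7 and 25.9 CPM in MeVa2.1 and 3.06, 1.42 and 1.46 CPM in MeVa2.1.dOVA, 13.6-fold lower (log2 fold change -3.76 ± 0.55, adjusted p = 0.0193). Sulf1, which removes sulfate groups from the chains at the cell surface, was at 8.57, 3.33 and 0.906 CPM in MeVa2.1 and 0.183, 0 and 0.0573 CPM in MeVa2.1.dOVA (log2 fold change -5.72 ± 1.09, adjusted p = 0.0493), and its related gene Sulf2 at 313, 445 and 275 CPM in MeVa2.1 and 163, 202 and 149 CPM in MeVa2.1.dOVA (log2 fold change -0.99 ± 0.12, adjusted p = 0.00624 with the replicate block and 0.0543 without). The core protein gene Sdc3 was at 194, 185 and 102 CPM in MeVa2.1 and 84.2, 52.8 and 55.7 CPM in MeVa2.1.dOVA (log2 fold change -1.29 ± 0.20, adjusted p = 0.0164 with the replicate block and 0.279 without). Of 24 tested genes of heparan sulfate, 2 were called lower without the block and 7 with it, and none was called higher in either fit. The median log2 fold change of the list was -0.42.

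Receptors of adhesion and guidance were also among the genes that fell. Cd93, a lectin-like receptor known from endothelial and myeloid cells, was at 270.4, 88.2 and 18.8 CPM in MeVa2.1 and 5.63, 0.533 and 0.8598 CPM in MeVa2.1.dOVA (log2 fold change -5.80 ± 1.07, adjusted p = 0.0432). Replicate 1 held most of the parent's level, and even replicate 3, the lowest, was above all libraries of MeVa2.1.dOVA. Dchs1, an atypical cadherin of planar cell polarity, fell 20-fold, from 55.4, 22.6 and 17.7 to 3.12, 0.7696 and 0.974 CPM (log2 fold change -4.32 ± 0.74, adjusted p = 0.0328). Chl1, a neural adhesion molecule of the L1 family, had 44, 64 and 82 counts in the MeVa2.1 libraries and 1, 0 and 0 in MeVa2.1.dOVA. This was a ratio of 177 after scaling, with a counting interval of 31.4 to 7040 (adjusted p = 0.0193). Ptprf, a receptor phosphatase of cell contacts, was at 9.44, 2.73 and 1.62 CPM in MeVa2.1 and 0.306, 0.118 and 0.172 CPM in MeVa2.1.dOVA (log2 fold change -4.51 ± 0.84, adjusted p = 0.0443). Ephb2, a receptor for ephrins, was at 5.08, 1.53 and 3.29 CPM in MeVa2.1 and 0.245, 0.237 and 0.201 CPM in MeVa2.1.dOVA (log2 fold change -3.85 ± 0.70, adjusted p = 0.0425). The fold changes of Cadm3, an immunoglobulin-type adhesion molecule, and of Mdga2, a neuronal membrane protein of the same class, were -3.74 ± 0.70 and -2.44 ± 0.45 on the log2 scale. Tspan12, a tetraspanin of Norrin signalling, had 87 counts in MeVa2.1 and 1 in MeVa2.1.dOVA, a ratio of 81.2 with an interval of 14.2 to 3240.

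With the block, a few integrin and semaphorin receptor genes were called as well. Of 18 tested integrin genes, 0 passed without the block (5 were lower at an unadjusted p under 0.05, and DESeq2 called 2 lower), 3 were lower with it, and 16 had negative values. The collagen-binding integrin subunit Itga1 was at 63.3, 36.6 and 45.1 CPM in MeVa2.1 and 15.5, 2.901 and 17.7 CPM in MeVa2.1.dOVA (log2 fold change -2.27 ± 0.44, adjusted p = 0.0336 with the replicate block and 0.311 without), and Itga2, a further collagen-binding subunit, was at 21.5, 5.69 and 4.83 CPM in MeVa2.1 and 0.979, 0.118 and 0.745 CPM in MeVa2.1.dOVA (log2 fold change -3.91 ± 0.67, adjusted p = 0.0206 with the replicate block and 0.0883 without). Plxna4, a receptor for semaphorins, was at 63.6, 21.4 and 8.07 CPM in MeVa2.1 and 7.22, 0.947 and 0.544 CPM in MeVa2.1.dOVA (log2 fold change -3.74 ± 0.47, adjusted p = 0.00668 with the replicate block and 0.211 without). Alcam, an immunoglobulin-type adhesion molecule also used by T cells, was at 261, 179.6 and 120 CPM in MeVa2.1 and 90.2, 83.5 and 74.7 CPM in MeVa2.1.dOVA (log2 fold change -1.11 ± 0.18, adjusted p = 0.0176 with the replicate block and 0.0611 without). Of 32 immunoglobulin-type and junction genes, 3 were called lower without the block and 7 with it. Cd34, a sialomucin, was the member with a call in the other direction, at 8.57, 4.76 and 15.5 CPM in MeVa2.1 and 51.8, 17.3 and 91.7 CPM in MeVa2.1.dOVA (log2 fold change 2.36 ± 0.44, adjusted p = 0.0281 with the replicate block and 0.228 without).

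The gamma protocadherins, a cluster of adhesion genes from which single cells use different members, changed member by member. Pcdhgb2 was at 23.1, 21.8 and 15.4 CPM in MeVa2.1 and 3.24, 1.72 and 1.98 CPM in MeVa2.1.dOVA, 8.74-fold lower, with the smallest adjusted p of all genes (log2 fold change -3.13 ± 0.27, adjusted p = 0.00133). Pcdhgb6 was at 22.8, 25.4 and 25.3 CPM in MeVa2.1 and 4.098, 1.18 and 2.29 CPM in MeVa2.1.dOVA (log2 fold change -3.28 ± 0.48, adjusted p = 0.0193). Pcdhga4 and Pcdhgb1 were lower by 10.3-fold and 8.23-fold. Their neighbours did not all follow. Pcdhga3 was at 8.405, 13.01 and 7.25 CPM in MeVa2.1 and 16.6, 14.9 and 14.1 CPM in MeVa2.1.dOVA and Pcdhgc3 at 254, 346 and 290.2 CPM in MeVa2.1 and 284, 262 and 261 CPM in MeVa2.1.dOVA, neither called, and Pcdhgb7 was higher with the block, at 2.29, 3.77 and 3.84 CPM in MeVa2.1 and 9.66, 7.87 and 7.79 CPM in MeVa2.1.dOVA (log2 fold change 1.36 ± 0.25, adjusted p = 0.0259 with the replicate block and 0.0607 without). All these genes share their last exons, so reads there cannot be given to 1 member and the values rest on the parts each has alone. Pcdhga3, Pcdhgb7 and Pcdhgc3 were chosen after their values were seen.

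Among cytokine receptor and chemokine genes, Osmr, Lepr and Cx3cl1 were called lower, while Cxcl10 was called higher with the block alone. Osmr encodes the receptor chain for oncostatin M, which acts through the shared subunit gp130. It was at 6.17, 5.63 and 5.24 CPM in MeVa2.1 and 0.306, 0.474 and 0.315 CPM in MeVa2.1.dOVA, 15.5-fold lower (log2 fold change -3.96 ± 0.52, adjusted p = 0.0193). The libraries of each line were tight, with a wide gap between them. Il6st, the gene of gp130, was at 826, 971 and 730.2 CPM in MeVa2.1 and 573, 513 and 501 CPM in MeVa2.1.dOVA (adjusted p = 0.0894 with the block and 0.281 without). The leukaemia inhibitory factor receptor gene Lifr was lower with the block, at 2.07, 0.492 and 0.467 CPM in MeVa2.1 and 0.0612, 0.0592 and 0.0287 CPM in MeVa2.1.dOVA (log2 fold change -4.08 ± 0.73, adjusted p = 0.0245 with the replicate block and 0.196 without). Lepr, the leptin receptor, was at 1.75, 1.59 and 2.72 CPM in MeVa2.1 and 0.367, 0.237 and 0.201 CPM in MeVa2.1.dOVA (log2 fold change -2.93 ± 0.51, adjusted p = 0.0371). Cx3cl1, at chr8:94772009-94782427, encodes fractalkine, a membrane-bound chemokine for cells that bear Cx3cr1, and was at 10.8, 9.24 and 8.78 CPM in MeVa2.1 and 1.59, 1.18 and 2.09 CPM in MeVa2.1.dOVA (log2 fold change -2.55 ± 0.46, adjusted p = 0.0425). All 3 parent libraries lay above all 3 of the derivative. Cxcl12 was lower with the block, at 13.3, 17.7 and 27.3 CPM in MeVa2.1 and 5.504, 1.42 and 4.21 CPM in MeVa2.1.dOVA (log2 fold change -2.48 ± 0.51, adjusted p = 0.0411 with the replicate block and 0.119 without). Cxcl10, an interferon-induced attractant of T cells, was higher with it, at 8.46, 4.05 and 1.21 CPM in MeVa2.1 and 29.9, 18.5 and 5.703 CPM in MeVa2.1.dOVA (log2 fold change 2.07 ± 0.33, adjusted p = 0.0173 with the replicate block and 0.452 without). The Cxcl10 libraries of the lines overlapped, and each was higher than the parent library of its own number.

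Il1rl1, at chr1:40429570-40465415, encodes ST2, the receptor for interleukin-33, and rose. It was at 136, 110.4 and 179.6 CPM in MeVa2.1 and 638, 1080 and 369 CPM in MeVa2.1.dOVA, 4.89-fold higher (log2 fold change 2.29 ± 0.43, adjusted p = 0.0493). Replicate 2 was the highest library of the derivative and the lowest of the parent. Il1rl1 was still called in 2 of the 12 fits that left out 1 library. The gene of the ligand, Il33, was at 56.4, 21.3 and 7.22 CPM in MeVa2.1 and 39.3, 11.4 and 11.2 CPM in MeVa2.1.dOVA and did not pass the test (adjusted p = 0.875). Of 14 tested genes of the interleukin-1 family and its receptors, Il1rl1 was the 1 called without the block. With it, Il1rl2 was also called, lower, and 11 of the 14 had negative fold changes, with a median of -0.31 on the log2 scale.

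Prostaglandin E2 is made by Ptgs2 and then Ptges, carried into cells for breakdown by the transporter Slco2a1 and sensed by receptors such as Ptger2. Ptges, at chr2:30889471-30929863, was at 23.7, 4.65 and 3.38 CPM in MeVa2.1 and 0.367, 0.0592 and 0.08598 CPM in MeVa2.1.dOVA (log2 fold change -6.02 ± 1.04, adjusted p = 0.0364). Its parent level was mostly in replicate 1, and the other parent libraries still lay above all of the derivative. Slco2a1, at chr9:102988712-103096002, was at 7.31, 8.37 and 4.09 CPM in MeVa2.1 and 0.612, 0.355 and 0.659 CPM in MeVa2.1.dOVA, 11.9-fold lower (log2 fold change -3.57 ± 0.50, adjusted p = 0.0193). Ptger2 had 123, 19 and 56 counts in MeVa2.1 and 0 in every library of MeVa2.1.dOVA, which made it at least 61.6-fold lower against a floor of 3 counts over the line (adjusted p = 0.0226 with the block and 0.0607 without). Ptgs2, by contrast, was at 1573, 1462 and 519 CPM in MeVa2.1 and 1027, 938 and 942 CPM in MeVa2.1.dOVA, with overlapping libraries (adjusted p = 0.909). Of 20 prostaglandin and adenosine genes tested, 2 were called lower without the block and 4 with it. Entpd1, the enzyme CD39 that starts the breakdown of extracellular ATP, was the other of these, at 2.51, 1.31 and 3.71 CPM in MeVa2.1 and 0.5504, 0 and 0.172 CPM in MeVa2.1.dOVA (log2 fold change -3.62 ± 0.68, adjusted p = 0.0287 with the replicate block and 0.202 without).

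The promoters of these genes are shown because they belong to members at both ends of the comparison: a prostaglandin pair and a cytokine receptor that fell, and a cytokine receptor and a pair of X-linked genes that rose. Each is the 250 bases before a RefSeq start on GRCm38.p6, read 5′ to 3′ on the gene's strand, and capitals mark matches to the motifs searched. These were TATAAA (a core promoter element), TGANTCA (AP-1), GGAATG (TEAD), TGACGTCA (CRE), CACGTG (E-box), TTCNNNGAA (STAT) and CCAAT, on both strands, and none contains another. Il1rl1 has 2 starts, a distal and a proximal one.
Ptges, chr2:30903298-30903547, minus strand: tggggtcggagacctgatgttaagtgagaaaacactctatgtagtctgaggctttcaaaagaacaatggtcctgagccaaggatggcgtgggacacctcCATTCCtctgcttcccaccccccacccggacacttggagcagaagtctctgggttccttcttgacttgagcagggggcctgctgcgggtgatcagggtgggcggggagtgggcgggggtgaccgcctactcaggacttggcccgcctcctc
Slco2a1, chr9:103008237-103008486, plus strand: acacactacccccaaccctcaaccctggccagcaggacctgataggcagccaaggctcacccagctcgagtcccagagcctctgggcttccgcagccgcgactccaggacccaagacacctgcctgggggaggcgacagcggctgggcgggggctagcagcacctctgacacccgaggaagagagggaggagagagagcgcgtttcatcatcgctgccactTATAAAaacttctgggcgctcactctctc
Osmr, chr15:6874314-6874563, minus strand: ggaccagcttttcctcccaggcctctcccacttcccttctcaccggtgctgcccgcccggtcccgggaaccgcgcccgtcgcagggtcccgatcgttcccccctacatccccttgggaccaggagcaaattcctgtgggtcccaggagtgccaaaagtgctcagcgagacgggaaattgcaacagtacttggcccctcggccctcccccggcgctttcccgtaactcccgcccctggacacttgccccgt
Il1rl1 distal, chr1:40429320-40429569, plus strand: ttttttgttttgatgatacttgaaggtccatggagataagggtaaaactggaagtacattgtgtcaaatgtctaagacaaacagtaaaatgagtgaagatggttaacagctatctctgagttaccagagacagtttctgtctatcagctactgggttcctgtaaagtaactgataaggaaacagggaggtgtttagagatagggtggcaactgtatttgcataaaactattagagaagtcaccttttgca
Il1rl1 proximal, chr1:40439379-40439628, plus strand: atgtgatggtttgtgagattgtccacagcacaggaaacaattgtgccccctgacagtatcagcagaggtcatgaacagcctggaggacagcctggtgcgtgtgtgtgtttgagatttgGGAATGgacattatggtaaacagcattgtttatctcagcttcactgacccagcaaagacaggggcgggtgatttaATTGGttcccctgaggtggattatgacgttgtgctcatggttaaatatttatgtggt
Xlr, chrX:53797707-53797956, minus strand: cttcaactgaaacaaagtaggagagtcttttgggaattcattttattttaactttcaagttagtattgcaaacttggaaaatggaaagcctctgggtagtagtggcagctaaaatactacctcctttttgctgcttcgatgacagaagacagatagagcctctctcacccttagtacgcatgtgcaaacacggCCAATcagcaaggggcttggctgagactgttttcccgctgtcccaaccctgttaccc
3830403N18Rik, chrX:56136322-56136571, plus strand: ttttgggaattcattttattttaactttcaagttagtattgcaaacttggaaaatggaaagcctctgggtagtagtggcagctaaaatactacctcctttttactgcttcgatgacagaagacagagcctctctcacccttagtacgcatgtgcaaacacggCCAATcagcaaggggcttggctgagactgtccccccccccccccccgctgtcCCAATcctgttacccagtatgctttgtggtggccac

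The promoters of the called genes had a lower CpG ratio than those of all tested genes. The table used held a promoter for 37 of the 54 genes called lower, 8 of the 14 called higher and 9966 of all 13985. The median ratio of observed to expected CpG was 0.558 for genes called lower, 0.336 for genes called higher and 0.74 for all tested genes. It was 0.543 for the 352 genes lower with the block and 0.748 for the 98 higher with it. Motifs were found at shares near those of all tested genes with a few differences. GGAATG was in 21.6% of the promoters of genes called lower against 10.2% of all, TGANTCA in 10.8% against 4.37%, and TATAAA in 10.8% against 6.33%. With the larger set lower with the block the shares were 12.6%, 8.91% and 10.9%. CCAAT was in 40.5% of the promoters of genes called lower and 37.0% of all. CACGTG was in 5.41% against 8.4%, TTCNNNGAA in 5.41% against 5.79% and TGACGTCA in 2.7% against 2.81%. In the sequences shown, the Slco2a1 promoter has TATAAA close to its start and the Ptges promoter has GGAATG on the other strand, while that of Osmr and the distal one of Il1rl1 have none of the motifs. These shares are descriptions of letters and were not tested.

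Other genes that fell act in signalling, transport and metabolism. Slc38a1, a glutamine transporter, was at 11.1, 2.62 and 6.92 CPM in MeVa2.1 and 0.917, 0.7104 and 0.774 CPM in MeVa2.1.dOVA (log2 fold change -3.10 ± 0.54, adjusted p = 0.0371), and Slc25a13, a mitochondrial aspartate and glutamate carrier, at 10.3, 8.53 and 8.62 CPM in MeVa2.1 and 2.57, 1.01 and 2.04 CPM in MeVa2.1.dOVA (log2 fold change -2.28 ± 0.43, adjusted p = 0.0485). Abcb1a encodes the drug efflux pump P-glycoprotein and was at 29.2, 23.7 and 16.5 CPM in MeVa2.1 and 6.91, 4.03 and 4.901 CPM in MeVa2.1.dOVA, 4.38-fold lower (log2 fold change -2.13 ± 0.36, adjusted p = 0.0328). All 3 genes had no overlap between lines. Egln3, a prolyl hydroxylase that marks hypoxia-inducible factors for breakdown, was at 29.9, 17.4 and 33.9 CPM in MeVa2.1 and 4.22, 3.37 and 2.81 CPM in MeVa2.1.dOVA (log2 fold change -2.97 ± 0.57, adjusted p = 0.0493). Scarb2, a lysosomal membrane protein that carries glucocerebrosidase, was at 265, 340.1 and 235 CPM in MeVa2.1 and 135, 138 and 134 CPM in MeVa2.1.dOVA. This was a 2.06-fold lower level (log2 fold change -1.04 ± 0.17, adjusted p = 0.0261). It was the 1 of 28 lysosomal genes called without the block. With the block, Atp6v0d2 of this list was called too, in the higher direction, and the list's median log2 fold change was -0.07. Pcyt2 of phosphatidylethanolamine synthesis fell 5.71-fold, Aldh1a2 of retinoic acid synthesis 15.8-fold and the aldehyde oxidase gene Aox3 20-fold. Lrp5, a co-receptor for Wnt proteins, was at 18.7, 16.8 and 17.1 CPM in MeVa2.1 and 5.32, 5.03 and 5.59 CPM in MeVa2.1.dOVA (log2 fold change -1.72 ± 0.28, adjusted p = 0.0285). Ankrd6, an ankyrin-repeat protein of Wnt signalling, fell 4.51-fold, and Rasgrf1, an exchange factor that activates Ras, 3.77-fold. The secreted Wnt antagonist gene Frzb was lower with the block, at 3.002, 6.398 and 5.96 CPM in MeVa2.1 and 0.367, 0 and 0.229 CPM in MeVa2.1.dOVA (log2 fold change -4.63 ± 0.77, adjusted p = 0.0192 with the replicate block and 0.0592 without).

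Other genes that fell were Creld1 at 4.16-fold, the tubulin carboxypeptidase gene Agbl2 at 12.8-fold, the ubiquitin ligase gene Hecw1 at 7.13-fold, Plekha6 at 7.31-fold, the kinase gene Cdc42bpg at 3.73-fold, Phactr2 at 3.49-fold, the cap-binding protein gene Eif4e3 at 2.91-fold and Enpp4 at 2.85-fold. Igsf10 had 445 counts in MeVa2.1 and 1 in each library of MeVa2.1.dOVA, a ratio of 138 with a counting interval of 47.0 to 674. It overlaps Med12l on the other strand, which held 66 counts in these libraries. Grik1, a glutamate receptor subunit, had 99 counts against 1, a ratio of 92.3 with an interval of 16.2 to 3680. Carmn, the 1 non-coding RNA among the 68, is the host of a microRNA pair known from smooth muscle and was at 32.8, 42.5 and 21.2 CPM in MeVa2.1 and 4.71, 2.43 and 2.895 CPM in MeVa2.1.dOVA (log2 fold change -3.27 ± 0.40, adjusted p = 0.0193).

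Regulators of transcription were called in both directions. Prdm16, a zinc finger factor known from brown fat, was at 62.3, 59.6 and 55.1 CPM in MeVa2.1 and 29.97, 28.7 and 28.4 CPM in MeVa2.1.dOVA, with a narrow spread in both lines (log2 fold change -1.02 ± 0.16, adjusted p = 0.0235). Bcl6b, a repressor related to Bcl6, was at 16.4, 10.9 and 10.02 CPM in MeVa2.1 and 1.53, 0.474 and 0.602 CPM in MeVa2.1.dOVA, 14.6-fold lower (log2 fold change -3.87 ± 0.57, adjusted p = 0.0193). The homeobox gene Hdx and the testis bromodomain gene Brdt were lower by 13.7-fold and 4.1-fold. On the other side, Pou3f1, a POU factor of Schwann and neural cells, was at 1.47, 2.898 and 1.43 CPM in MeVa2.1 and 17.6, 14.7 and 22.6 CPM in MeVa2.1.dOVA, 9.5-fold higher (log2 fold change 3.25 ± 0.53, adjusted p = 0.0277). Npas3, a bHLH factor of the brain, was at 4.86, 5.96 and 6.505 CPM in MeVa2.1 and 18.04, 13.6 and 20.6 CPM in MeVa2.1.dOVA (log2 fold change 1.59 ± 0.24, adjusted p = 0.0235). The lowest library of the derivative was above the highest of the parent for both.

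Some of the developmental regulators that rose were barely detected in the parent. Zic2 was at 0.0546, 0.0547 and 0.165 CPM in MeVa2.1 and 0.673, 1.78 and 1.92 CPM in MeVa2.1.dOVA (log2 fold change 3.79 ± 0.72, adjusted p = 0.0493). Zic5, its neighbour 9757 bases away, was at 0.218, 0.109 and 0.192 CPM in MeVa2.1 and 0.979, 2.13 and 0.917 CPM in MeVa2.1.dOVA (log2 fold change 2.89 ± 0.55, adjusted p = 0.0493). Hoxd8 was at 0, 0.0547 and 0.0824 CPM in MeVa2.1 and 1.16, 0.474 and 1.35 CPM in MeVa2.1.dOVA (log2 fold change 4.13 ± 0.74, adjusted p = 0.0418), and of 41 Hox genes listed the 1 other that could be tested, Hoxa7, was higher with the block, at 0, 0.219 and 0.1098 CPM in MeVa2.1 and 1.53, 1.78 and 4.01 CPM in MeVa2.1.dOVA (log2 fold change 4.51 ± 0.65, adjusted p = 0.0109 with the replicate block and 0.0798 without). Shox2 was at 2.18, 2.84 and 5.19 CPM in MeVa2.1 and 8.195, 10.1 and 16.4 CPM in MeVa2.1.dOVA (log2 fold change 1.79 ± 0.20, adjusted p = 0.00559 with the replicate block and 0.0608 without). Sp8 had 0, 0 and 2 counts in MeVa2.1 and 10, 12 and 286 in MeVa2.1.dOVA. Most of its ratio of 165 (interval 45.3 to 1370) thus rests on replicate 3 of the derivative. Sp8 was called with the replicate block (adjusted p = 0.00624) and not without (0.159). Fgf10, a growth factor of limb and epithelial budding, was at 0, 0 and 0.192 CPM in MeVa2.1 and 2.75, 0.651 and 3.07 CPM in MeVa2.1.dOVA (log2 fold change 4.83 ± 0.78, adjusted p = 0.018 with the replicate block and 0.0705 without).

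The other genes that rose had varied roles. Fhl1, a LIM domain protein of muscle and stress fibres, was at 37.9, 51.3 and 52.3 CPM in MeVa2.1 and 185, 171 and 213 CPM in MeVa2.1.dOVA, 4.02-fold higher (log2 fold change 2.01 ± 0.32, adjusted p = 0.0262). Glipr1, a p53-responsive secreted protein gene, was at 14.8, 9.897 and 9.305 CPM in MeVa2.1 and 70.4, 66.1 and 31.98 CPM in MeVa2.1.dOVA (log2 fold change 2.31 ± 0.42, adjusted p = 0.0425). It shares 235 exon bases with Krr1 on the other strand, a gene with 11088 counts in these libraries, so its level is less certain. Chst7, which sulfates chondroitin, was at 0.6004, 0.602 and 0.165 CPM in MeVa2.1 and 3.24, 5.27 and 4.499 CPM in MeVa2.1.dOVA (log2 fold change 3.29 ± 0.53, adjusted p = 0.0262), and Ces1f, a carboxylesterase, was at 0.164, 0.328 and 0.192 CPM in MeVa2.1 and 2.75, 3.26 and 4.56 CPM in MeVa2.1.dOVA (log2 fold change 3.94 ± 0.69, adjusted p = 0.0371). The contactin-associated protein gene Cntnap4 was 6.46-fold higher. Of the 14 genes called higher, 4 lie on chromosome X, where 485 genes were tested. Xlr was at 0.0546, 0 and 0.247 CPM in MeVa2.1 and 2.45, 4.32 and 4.18 CPM in MeVa2.1.dOVA (log2 fold change 4.87 ± 0.92, adjusted p = 0.0493), and 3830403N18Rik was at 0.0546, 0.0547 and 0.521 CPM in MeVa2.1 and 1.83, 4.62 and 4.13 CPM in MeVa2.1.dOVA (log2 fold change 3.79 ± 0.61, adjusted p = 0.0262). Xlr, 3830403N18Rik and Fhl1 follow each other along the chromosome, with 1 tested gene between the members of the first pair and 5 between those of the next, none of these 6 called in either fit. The promoters of Xlr and 3830403N18Rik printed above share a long, nearly identical stretch. Whether reads that fit both genes affect their counts was not tested, so their levels are less certain.

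Of 26 tested ribosome biogenesis genes, 1 was called higher without the block and 7 with it, and none was called lower. All 26 had small positive fold changes, with a median of 0.71 on the log2 scale, and 15 were higher at an unadjusted p under 0.05, against 4.31% of all genes. The pair medians were 0.42, 1.02 and 0.54, and the fitted median was 0.53 without replicate 2 of MeVa2.1.dOVA. Gpatch4, a nucleolar G-patch protein, was called in both fits, at 36.6, 29.6 and 36.7 CPM in MeVa2.1 and 69.5, 78.97 and 64.6 CPM in MeVa2.1.dOVA (log2 fold change 1.05 ± 0.19, adjusted p = 0.0425). Nop58, a core protein of small nucleolar ribonucleoproteins, was at 191, 177 and 216 CPM in MeVa2.1 and 283, 389 and 347 CPM in MeVa2.1.dOVA (log2 fold change 0.80 ± 0.15, adjusted p = 0.0284 with the replicate block and 0.3 without). Dkc1, the pseudouridine synthase dyskerin, was at 80.7, 74.2 and 76.9 CPM in MeVa2.1 and 111, 143 and 132 CPM in MeVa2.1.dOVA (log2 fold change 0.73 ± 0.15, adjusted p = 0.045 with the replicate block and 0.325 without). The libraries of the lines did not overlap for these 3 genes. Among ribosomal protein genes, 0 of 30 were called by edgeR with or without the block or by DESeq2, 0 had an unadjusted p under 0.05, and their median was -0.02. Myc, a factor that drives these genes in many cells, was at 108, 101 and 84.7 CPM in MeVa2.1 and 112, 141 and 194 CPM in MeVa2.1.dOVA (adjusted p = 0.689).

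Immune lists held few calls. Of 46 interferon-stimulated genes, 0 were called by edgeR with or without the block or by DESeq2, 1 had an unadjusted p under 0.05 (11.2% of all genes did), and the median log2 fold change was -0.08. That median was -0.50 without replicate 1 of MeVa2.1.dOVA and 0.20 without replicate 3, so its sign rests on single libraries. Of 21 MHC class I and antigen processing genes, 0 were called without the block and DESeq2 called 0. At an unadjusted p under 0.05, 3 were lower and 0 higher, where 6.89% of all genes were lower. Of the 21, 19 had negative values. The median was -0.41, and between -0.54 and -0.33 when 1 of the 6 libraries was left out. H2-K1 was lower with the block, at 61.3, 33.9 and 20.2 CPM in MeVa2.1 and 19.7, 17.4 and 10.5 CPM in MeVa2.1.dOVA (log2 fold change -1.18 ± 0.24, adjusted p = 0.0389 with the replicate block and 0.281 without). B2m, the light chain of MHC class I, was at 499, 579 and 344 CPM in MeVa2.1 and 448, 490.1 and 388 CPM in MeVa2.1.dOVA (adjusted p = 0.91). Cd274, the gene of the checkpoint ligand PD-L1, was at 5.02, 7.6 and 2.28 CPM in MeVa2.1 and 3.06, 5.92 and 3.296 CPM in MeVa2.1.dOVA (adjusted p = 0.904). Reads that fit several H2 genes are not in the counts, so H2-K1 is less certain. Of 23 checkpoint and phagocytosis genes, 5 were lower and 0 higher at an unadjusted p under 0.05, and 17 had negative values, with a median of -0.44. Among them 0 were called without the block, DESeq2 called 2 lower, and 3 were lower with the block: Entpd1, Cd200 and Vsir. Vsir, the checkpoint ligand VISTA, was at 14.5, 12.1 and 4.97 CPM in MeVa2.1 and 2.63, 0.414 and 1.43 CPM in MeVa2.1.dOVA (log2 fold change -2.83 ± 0.61, adjusted p = 0.0483 with the replicate block and 0.275 without).

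Growth and stress lists were likewise nearly free of calls. None of 38 replication and mitosis genes and none of 29 integrated stress response genes passed edgeR's test in either fit, 1 and 0 had an unadjusted p under 0.05, and DESeq2 called 0 in both lists. The replication list's median was -0.01, with pair medians of 0.43, -0.39 and -0.28, so the pairs did not share a direction, and it ran from -0.35 without replicate 2 of MeVa2.1 to 0.42 without its replicate 3. Of 23 p53 target genes, 0 passed without the block (1 higher and 2 lower at an unadjusted p under 0.05, and 0 by DESeq2) and 1 was lower with it. Their median of 0.63 was 0.12 without replicate 2 of MeVa2.1.dOVA. Mdm2, a p53 target and the ligase that degrades p53, shows this library: it was at 243, 465 and 249 CPM in MeVa2.1 and 313, 1620 and 369.6 CPM in MeVa2.1.dOVA. Mitochondrially encoded mRNAs had a median of -0.37 over 7 genes, none called in either fit or by DESeq2 and 1 with an unadjusted p under 0.05. The plot of gene lists sets the members of 16 lists side by side.

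**Figure D3:**
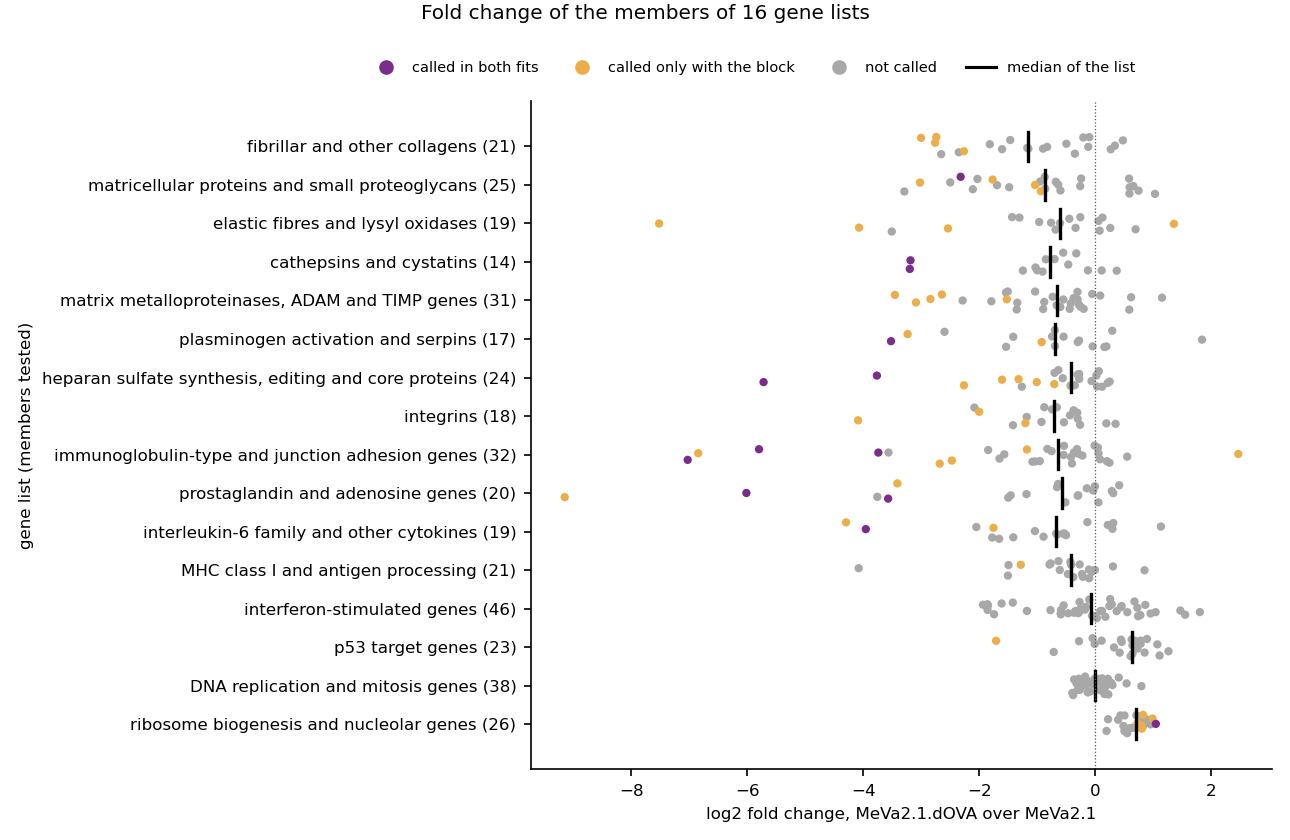
Each point is a tested member of the list named on the y axis (number tested in brackets), placed by its log2 fold change of MeVa2.1.dOVA over MeVa2.1 (x axis), and the bar is the list's median. The medians of the matrix, protease and adhesion lists lie below 0, down to -1.15 for collagens (-0.75 without replicate 2 of MeVa2.1.dOVA), that of interferon-stimulated genes is at -0.08 and that of ribosome biogenesis genes at 0.71.

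Markers of other cell types ranged from uncounted to abundant. Of 22 leukocyte markers, 7 had no count in any of the 6 libraries (among them Cd3e, Cd4, Cd8a, Ms4a1, Nkg7 and C1qb), and their summed level ran from 6.83 to 59.6 CPM in MeVa2.1 and from 2.69 to 13 CPM in MeVa2.1.dOVA. Most of it in replicate 1 of MeVa2.1 was Laptm5, a lysosomal protein of blood cells, at 44.7, 3.94 and 2.44 CPM in MeVa2.1 and 1.77, 0.178 and 0.201 CPM in MeVa2.1.dOVA (log2 fold change -4.29 ± 0.43, adjusted p = 0.00411 with the replicate block and 0.231 without). Ptprc, the pan-leukocyte gene of CD45, was at 0.0546, 0 and 0.0824 CPM in MeVa2.1 and 0, 0 and 0.0287 CPM in MeVa2.1.dOVA. Of 18 endothelial markers, Tie1, Cldn5, Sox17 and Robo4 had no count, and the sums were 403 to 770 CPM in MeVa2.1 and 301 to 369 CPM in MeVa2.1.dOVA, beside the Cd93 result. Fibroblast markers summed to 3170 to 4660 and 2520 to 5130 CPM. Of 13 tested, 1 was called lower without the block (Dcn), and 3 lower (Dcn, Thy1 and Fap) and 1 higher (Cd34) with it. Thy1 had 245 counts in MeVa2.1 and 2 in MeVa2.1.dOVA, a ratio of 114 with an interval of 31.3 to 949. Pericyte and smooth muscle markers summed to 916 to 1740 and 892 to 1310 CPM. All 8 tested had negative fold changes, with a median of -1.19 on the log2 scale, and Mcam was called lower with the block. Schwann and glial markers summed to 217 to 347 and 105 to 185 CPM, 9 of 10 tested were negative, with a median of -1.05, and Ngfr and Gldn were called lower with the block. Keratinocyte markers summed to 6.04 to 9.57 and 4.93 to 10.5 CPM. Adipocyte markers summed to 3.17 to 4.64 and 0.0592 to 1.22 CPM, with Lpl called lower with the block, and skeletal muscle markers to 0.930 to 1.96 and 0.414 to 0.979 CPM. The part of these markers in the matrix and adhesion results was not tested.

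Genes that were nearly silent in 1 line can be listed by count: at most 3 counts over the 3 libraries of that line and at least 100 in the other. Besides Chl1, Igsf10, Loxl2, Thy1 and Ptger2, those low in MeVa2.1.dOVA were Rxrg, a retinoid receptor gene (136 counts against 3, adjusted p = 0.00568 with the block and 0.0607 without), Ccdc149 (169 against 2), Cacng3 (132 against 3), Lgi2 (115 against 3), Baiap2l1 (114 against 1), Psg20 (118 against 2) and Fmo2 (107 against 3). Ccdc149, Cacng3 and Lgi2 were called with the block (adjusted p = 0.0079, 0.0265 and 0.0183) but not without it (0.0607, 0.172 and 0.207). Baiap2l1, Psg20 and Fmo2 did not pass the filter on low counts and were not tested. Replicate 1 of MeVa2.1 held 114 of the 118 counts of Psg20 and 89 of 114 for Baiap2l1. It also held 82 of 115 for Lgi2, 68 of 107 for Fmo2 and 103 of 169 for Ccdc149. In the other direction, Sp8 was the 1 gene that met this rule. Abundant genes with large differences that were called only with the block included hormones and transporters. Stc1, the hormone stanniocalcin, was at 212, 103 and 19.98 CPM in MeVa2.1 and 8.99, 0.296 and 1.003 CPM in MeVa2.1.dOVA (log2 fold change -5.29 ± 0.66, adjusted p = 0.00668 with the replicate block and 0.102 without). Slc14a1, a urea transporter, was at 259, 135 and 46.5 CPM in MeVa2.1 and 10.6, 1.95 and 2.46 CPM in MeVa2.1.dOVA (log2 fold change -4.92 ± 0.49, adjusted p = 0.00411 with the replicate block and 0.0564 without), and Tac1, the precursor of substance P, was at 121, 15.5 and 5.27 CPM in MeVa2.1 and 2.38, 0 and 0.573 CPM in MeVa2.1.dOVA (log2 fold change -5.11 ± 0.69, adjusted p = 0.00924 with the replicate block and 0.153 without). Replicate 1 was the highest parent library for all 3. Igfbp4, which binds insulin-like growth factors, was at 499, 394 and 278 CPM in MeVa2.1 and 63.7, 16.6 and 67.2 CPM in MeVa2.1.dOVA (log2 fold change -3.17 ± 0.63, adjusted p = 0.0376 with the replicate block and 0.0607 without).

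Along the chromosomes, 1 region stood out when genes with a mean of at least 8 CPM were taken in bins of 20. The first 120 such genes of chromosome 15, from chr15:3317760-73061204, had a median log2 fold change of 0.332, and 96 of 120 (80.0%) were positive. The pair medians were 0.274, 0.262 and 0.444. The other 247 genes of the chromosome had a median of 0.043 and all 9313 such genes outside the region 0.044, with 55.7% of the latter positive. The 6 bins of the region had medians of 0.249 to 0.456, the other 456 bins of the genome ranged from -0.268 to 0.376, and 5 of these exceeded 0.25. Of these 120, none was called without the block, while 15 were higher and 3 lower with it. Of the 9313 genes outside the region with such a mean, 53 were higher and 162 lower with the block. Over all tested genes of any level the shares were 0.701% and 2.52%. The 59 tested genes of the region with a lower mean had a median of -0.161 and 24 positive values, and 1 of them, Osmr, was called lower without the block. The 15 genes higher with the block included Trio, Tars and Cct5. Trio, a guanine nucleotide exchange factor, was at 139.7, 119.6 and 152 CPM in MeVa2.1 and 246, 376 and 224 CPM in MeVa2.1.dOVA. Tars, a threonine tRNA ligase, was at 407, 281 and 366 CPM in MeVa2.1 and 567, 444 and 684 CPM in MeVa2.1.dOVA. Cct5, a chaperonin subunit, was at 485, 503 and 497 CPM in MeVa2.1 and 696, 856 and 765 CPM in MeVa2.1.dOVA. Brix1, of ribosome assembly, was at 65.98, 66.9 and 65.3 CPM in MeVa2.1 and 120.2, 208 and 123 CPM in MeVa2.1.dOVA (log2 fold change 1.14 ± 0.21, adjusted p = 0.0269 with the replicate block and 0.128 without). In MeVa2.2.dOVA over MeVa2.2 the region's median was 0.065. The region and the genes named in it were chosen after their values were seen and no test was made of it.

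**Figure D4:**
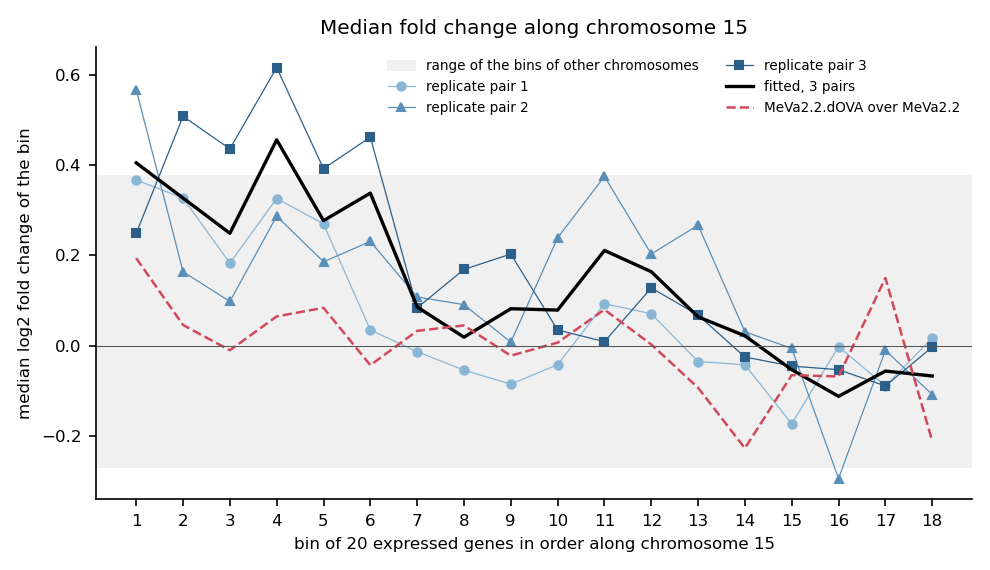
Median log2 fold change (y axis) of bins of 20 expressed genes in order along chromosome 15 (x axis), fitted over the 3 pairs (black), in each replicate pair of MeVa2.1.dOVA over MeVa2.1 (blue) and in MeVa2.2.dOVA over MeVa2.2 (dashed red), with the range of bins of other chromosomes in grey. The black line lies between 0.249 and 0.456 over the first 6 bins and comes down to 0.086 in the next.

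Whether the derivative of the other parent differed in the same genes was tested by the difference of the differences, MeVa2.1.dOVA minus MeVa2.1 less MeVa2.2.dOVA minus MeVa2.2. The pairs share no library. Of the 68 genes, 53 had the same sign in the MeVa2.2 pair: 45 of the 54 called lower were negative there, 25 of them at least 2-fold, and 8 of the 14 called higher were positive. The difference was called for 4 of the 68, with 12 called among all genes (0.0858%), and 46 of the 68 had an unadjusted p under 0.05. The 68 were selected on the MeVa2.1 libraries that also enter this difference, so many small p-values among them follow from the selection. The counts of 53 and 46 only describe these genes, and their shares over all tested genes are not given here. Hdx was at 1.45, 1.62 and 1.71 CPM in MeVa2.2 and 10.9, 14.5 and 6.23 CPM in MeVa2.2.dOVA, higher in the derivative, where the MeVa2.1 pair was lower (difference -6.50 ± 0.71, adjusted p = 0.0119). Brdt went the same way, at 0.755, 0.648 and 0.722 and 1.95, 1.66 and 2.03 CPM (difference -3.44 ± 0.51, adjusted p = 0.039). Carmn was low in both MeVa2.2 lines, at 0.871, 1.67 and 0.988 and 1.05, 1.72 and 2.03 CPM (difference -3.72 ± 0.56, adjusted p = 0.039). Pcdhgb2 was at 57.7, 56.9 and 52.7 and 32.6, 34.1 and 41.1 CPM (difference -2.49 ± 0.35, adjusted p = 0.0357).

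For genes such as Serpine2 and Nid1 the pairs' fold changes were near each other, while for Ptges this cannot be told. Ptges was at 3.08, 0.54 and 1.71 CPM in MeVa2.2 and 0.0527, 0 and 0.0278 CPM in MeVa2.2.dOVA, a log2 fold change of -5.76 (difference -0.26 ± 9.94, adjusted p = 1). Its level in MeVa2.2.dOVA was near 0, so this fold change rests on very few reads. The standard error is derived from the difference and the F statistic, and with both near 0 it is no reliable measure of the spread. Serpine2 was at 44.9, 30.6 and 56.2 and 5.01, 2.16 and 0.556 CPM, a log2 fold change of -4.12 (difference 0.60 ± 0.81, adjusted p = 0.949). Nid1 was at 201, 181 and 231 and 85.7, 85.3 and 45.7 CPM, a log2 fold change of -1.50 (difference -0.27 ± 0.35, adjusted p = 0.946). Ces1f had the nearest match among the genes called higher, with log2 fold changes of 3.94 and 4.12 (difference -0.18 ± 0.64, adjusted p = 0.994). Osmr had -0.36 in the MeVa2.2 pair (difference -3.60 ± 0.68, adjusted p = 0.084), and Pou3f1 was nearly absent from both MeVa2.2 lines, at 0.0581, 0.162 and 0.038 and 0.105, 0.111 and 0 CPM. A difference that missed the threshold does not show that the pairs changed alike.

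**Figure D5:**
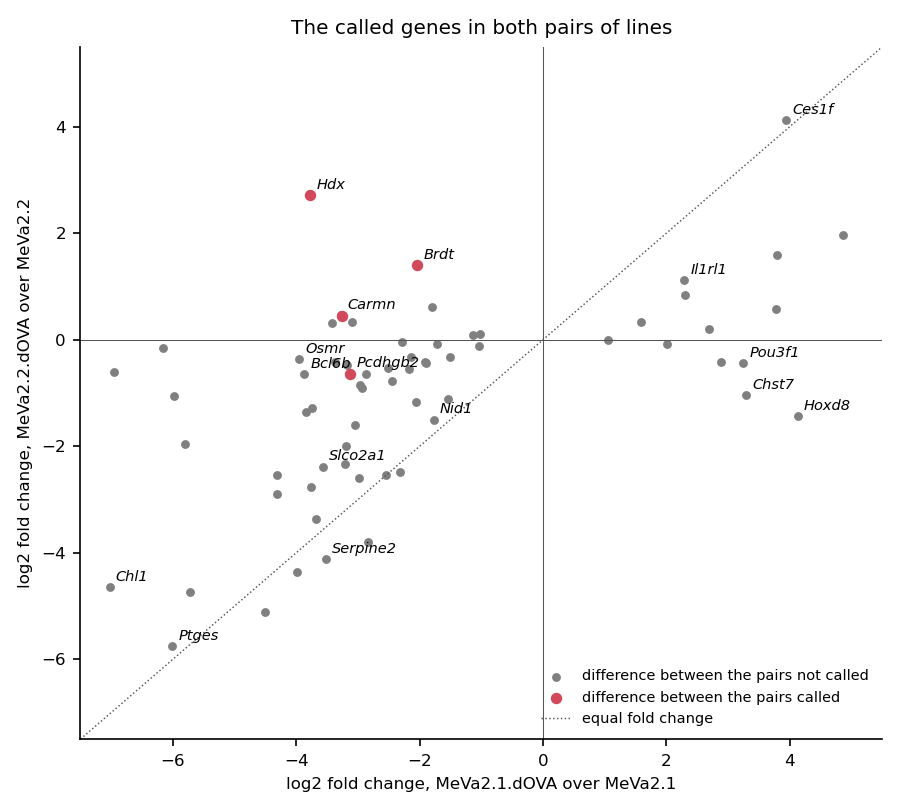
Each point is 1 of the 68 genes called between MeVa2.1.dOVA and MeVa2.1, placed by its log2 fold change there (x axis) and in MeVa2.2.dOVA over MeVa2.2 (y axis), with equal values on the dotted line. The 4 genes in red have a called difference between the pairs, from -6.50 for Hdx to -2.49 for Pcdhgb2.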

How the data were processed

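The authors deposited 1 file of whole-number read counts per gene for each library, without normalization. The tools named in the submitters' processing notes are STAR (2.6.0c), HTSeq (0.10.0) and DESeq2 (1.30.1), with GRCm38 as the build. The labels' protocols name a stranded mRNA kit, and the strand setting of the counting is not given in the sources used here. Groups and replicate numbers come from the sample titles. HTSeq's closing tallies of uncounted reads, 35.78% to 40.01% of a library, entered neither library sizes nor tests. Of 55471 gene identifiers, 55144 matched a symbol and 55230 a GENCODE M21 position. No replicates agreed within counting noise (chi-square per degree of freedom of at least 28.55).

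The counts as deposited were fitted with edgeR 4.0.16 under R 4.3.3: filterByExpr by line (13985 genes kept), TMM scaling, and a quasi-likelihood fit with 1 mean per line over all 12 libraries, since 3 libraries per line leave few residual degrees of freedom. The contrast was MeVa2.1.dOVA minus MeVa2.1, with p-values adjusted over all tested genes (Benjamini-Hochberg) and a threshold of 0.05. The standard error is the fold change divided by the square root of the F statistic. CPM were made with TMM-scaled library sizes. Depth limits what a count of 0 can show, and a line with 0 counts was set against a floor of 3. Counting intervals are exact (Clopper-Pearson, 95%).

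To check whether equal replicate numbers mark pairs, each library's deviation from the mean of its line was correlated across genes with that of its namesake in the other line. The correlations were 0.506, 0.51 and 0.558 between MeVa2.1 and its derivative, all over 0.1, so the numbers were taken as pairs. This rests on the values alone, as the labels leave the meaning of the numbers unexplained. The correlations were 0.022, 0.679 and 0.538 for the MeVa2.2 lines, which do not all pass. The block was fitted within each origin over all 12 libraries.

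Alternatives were DESeq2 size factors, upper-quartile scaling, other filters, DESeq2 1.42.0, other blocks and sample sets, other thresholds and leaving out each library. The edgeR steps were tested on simulated data. A gene was named if it was called, was among the 30 largest fold changes per direction called with the block at a mean log2 CPM of at least 3, belonged to 1 of the gene lists, was on in 1 line and off in the other, or was among the 10 most abundant. The members and lists were chosen with earlier results of these data known. Lists were described by counts and medians and not tested.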

Additional observations from a re-analysis of the deposited data

Results flagged for a closer look

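The 68 genes called between MeVa2.1.dOVA and MeVa2.1 include 4 whose difference was itself different in the MeVa2.2 pair by edgeR's quasi-likelihood test of the difference of the differences. The fold change of each was more negative in the MeVa2.1 pair. Hdx, a homeobox gene on chromosome X, had the largest difference, -6.50 ± 0.71, adjusted p = 0.0119, with log2 fold changes of -3.78 and 2.72 in the pairs. Brdt, a bromodomain gene of the testis, had -3.44 ± 0.51, adjusted p = 0.039, with -2.03 and 1.40. The non-coding RNA Carmn had -3.72 ± 0.56, adjusted p = 0.039, with -3.27 and 0.46. Pcdhgb2, a gamma protocadherin, had -2.49 ± 0.35, adjusted p = 0.0357, with -3.13 and -0.63. Brdt was low throughout, at most 2.03 CPM. Hdx was at most 2.18 CPM outside MeVa2.2.dOVA, where it was at 10.9, 14.5 and 6.23 CPM. Pcdhgb2 shares exons with its neighbours. When 1 library at a time was left out, 0 to 3 of these 4 genes were still called.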

How the results depend on the processing

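All called genes kept their direction in each alternative that tested them, but the number called varied widely between alternatives. Against 68, the count was 71 with DESeq2 size factors, 61 with upper-quartile scaling, 54 with a mean CPM of at least 1 and 272 with no filter on low counts. An adjusted p of 0.1 gave 147, and DESeq2 gave 394. The replicate block within each origin gave 450 and the block shared by both origins 364. With the 6 MeVa2.1 and MeVa2.1.dOVA libraries alone it was 25 without the block (21 of them among the 68), 541 with it and 1279 with DESeq2 and the block, 33.4% of these higher against 20.6%. Without the same-numbered pair 1, 2 or 3 the replicate block gave 41, 123 and 102. Leaving out 1 of the 12 libraries gave 1 to 83 calls, including 40 without replicate 1 of MeVa2.2 and 32 and 43 without replicates 1 and 2 of MeVa2.2.dOVA. The called differences of the differences among the 68, 4 in number, were 17 with no filter, 28 with DESeq2, 23 and 15 with the replicate block within each origin and shared, 12 and 1 with the block without pair 2 or 3, and 0 to 3 leaving out 1 library. The median over the first 120 genes of chromosome 15 stayed between 0.243 and 0.411. The causes were not tested. At 3 libraries per line single calls are insecure: Zic2, Zic5 and Brdt, all low, were called in 0 of the 12 fits that left out 1 library. A low level alone did not mark the insecure calls. Il1rl1 and Cd93, both abundant in MeVa2.1, were called in 2 of these fits, and the low genes Aldh1a2 and Grik1 in 7. Of the 12 fits, 6 left out a MeVa2.2 or MeVa2.2.dOVA library and kept the compared libraries whole. Without replicate 1 or 2 of MeVa2.1, or replicate 2 or 3 of MeVa2.1.dOVA, only Pcdhgb2 was called. The 7 for Aldh1a2 and Grik1 thus came mostly from fits that kept the compared libraries whole.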
